A study of Homo sapiens with 12 samples.

Results

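The mRNAs described here encode proteins of ferroptosis, iron handling and glutathione metabolism. They are 10 genes (GPX4, SLC7A11, FTH1, FTL, HMOX1, ACSL4, TFRC, SAT1, GCLM and AIFM2) picked by function and name among the 57773 genes counted, and all 10 were among the 21518 genes with enough counts to be tested. The 12 RNA-seq libraries, 3 in each of 4 groups, were made from the human diploid lung fibroblast line WI-38. The groups were proliferating cells with a non-targeting siRNA (siCtrl) kept for 8 days in vehicle (DMSO), and cells kept for 8 days in 50 µM etoposide, a DNA-damaging topoisomerase inhibitor that brings on senescence, with siCtrl, with siNTRK2 or with siBDNF. Each siRNA was a pool used at 25 nM, and the cells of every group, controls included, went through transfection. NTRK2 encodes TrkB, the receptor of the growth factor BDNF, and the comparisons asked which transcripts differ between the proliferating and the senescent state and which change when the receptor or its ligand is silenced in senescent cells. All libraries come from 1 cell line. The study describes its experiments in general as independent repeats with the groups handled side by side, but no label says that these replicates were separate cultures or ties a replicate number to a repeat, so the p-values measure the spread between these libraries, which may be technical.

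Ferroptosis is a form of cell death driven by iron-dependent oxidation of polyunsaturated lipids in membranes. Its main brake is the selenoenzyme encoded by GPX4, which reduces lipid hydroperoxides with glutathione, and glutathione in turn depends on cystine brought into the cell by the transporter that SLC7A11 encodes. Ferritin stores iron in a safe form, and senescent cells are known for changes in iron storage and in the handling of oxidants. Proteins were not measured here, and translation of several of these mRNAs is known to be regulated separately from their abundance.

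The ferritin and transferrin receptor mRNAs carry iron-responsive elements, hairpins bound by the iron regulatory proteins, and these are shown because they tie the iron-handling mRNAs to a shared sequence. The main transcript of each gene was searched for a C, 5 bases, the loop CAGTGN and 5 bases that pair with the first 5. The transcripts of 3 members held a match, against 253 of the 18922 transcripts searched (1.337%). In the lines below (GRCh37, written 5′ to 3′ on the transcript's strand) the capitals mark the loop.
FTH1, 5′ UTR, chr11:61735045-61735074, minus strand: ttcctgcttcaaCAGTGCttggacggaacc
FTL, 5′ UTR, chr19:49468592-49468621, plus strand: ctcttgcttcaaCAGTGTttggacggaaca
TFRC, 3′ UTR, chr3:195777849-195777878, minus strand: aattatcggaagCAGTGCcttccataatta
TFRC, 3′ UTR, chr3:195777445-195777474, minus strand: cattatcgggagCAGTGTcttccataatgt
TFRC, 3′ UTR, chr3:195777380-195777409, minus strand: ctgtatcggagaCAGTGAtctccatatgtt
TFRC, 3′ UTR, chr3:195777333-195777362, minus strand: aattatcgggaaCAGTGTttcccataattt

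The ferritin mRNAs held 1 match each, before the coding sequence, and TFRC held 4 after it. No match in the other 7 members says only that these letters are not in those transcripts. GPX4 carries a different feature, an in-frame TGA at codon 73 that is read as selenocysteine, the residue of its active site, and the TGA is in capitals (codon at chr19:1105402-1105404, plus strand, GRCh37).
GPX4: cgtggcctcccagTGAggcaagaccgaagt

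Promoters of RefSeq genes (GRCh38.p14, 250 bases before to 50 after the start) were searched on both strands for the core of the antioxidant response element (TGAC, any 3 bases, then GC), which NRF2, the main transcription factor of the antioxidant response, binds. Of the 7 members with an entry (GPX4, FTL, ACSL4, TFRC, SAT1, GCLM and AIFM2), 2 held a match, and 4687 of 35116 promoters did (13.35%). Both matches read on the reverse strand of the sequence shown and are in capitals.
GCLM, chr1:93909445-93909474, gene on the minus strand: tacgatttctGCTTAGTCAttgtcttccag
AIFM2, chr10:70132828-70132857, gene on the minus strand: cagcacgagtGCTGAGTCAcgccccgcccg

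Library totals ranged from 31567912 to 72328151 counts, and no member had fewer than 524 counts in any library, so counting error was small for all of them. NTRK2 had no count in the 3 siNTRK2 libraries and 7 to 15 counts in the senescent siCtrl libraries, and BDNF measured 44.3 to 48.9 CPM (read counts scaled to a common library size with TMM factors) with siBDNF against 157 to 169 with siCtrl in senescent cells. In proliferating cells NTRK2 had 1 to 11 counts and BDNF measured 153 to 163 CPM. NTRK2 had 10 to 29 counts with siBDNF, and BDNF measured 203 to 206 CPM with siNTRK2. All 10 fibroblast marker genes exceeded 1 CPM in every group, but they moved with the groups: 8 fell and 1 rose in senescence, 7 rose and 1 fell with siNTRK2, 2 rose and 5 fell with siBDNF, and 9 were higher with siNTRK2 than with siBDNF. Of the endothelial markers, TEK stood at 75.5, 32.8, 35.9 and 22.7 CPM in the proliferating, siCtrl, siNTRK2 and siBDNF groups. VWF rose in senescence instead and stood at 0.765, 1.86, 1.48 and 2.05 CPM in the same groups. The part of these shifts in the results below was not tested. None of 5 epithelial markers exceeded 1 CPM in proliferating cells, and 1 did in each senescent group. Among the leukocyte markers the lysosomal gene CD68 stood at 53.0, 109, 77.5 and 180 CPM in the proliferating, siCtrl, siNTRK2 and siBDNF groups, while the pan-leukocyte gene PTPRC had no count in proliferating cells and averaged at most 1.0 CPM elsewhere. With siNTRK2, 4 of 5 proliferation markers rose and 1 (PCNA) fell, with siBDNF 1 (MKI67) rose, and of 5 senescence markers CDKN1A and GDF15 fell with siNTRK2 while CDKN2A, LMNB1 and HMGB2 rose, the last 2 being genes that fall in senescence. With siBDNF the adjusted p of these 5 markers ran from 0.14 to 0.783 (edgeR). In bulk RNA, fewer cells of a type and less RNA per cell cannot be told apart.

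Levels of different genes were compared per kilobase of transcript. The ferritin mRNAs were by far the most abundant members. FTL, the light chain, averaged 6490 to 7644 CPM per kb over the 4 groups, and FTH1, the heavy chain that oxidizes iron, 2723 to 3509. GPX4 followed at 218 to 382 CPM per kb. The remaining 7 members lay between 7.68 CPM per kb (AIFM2 with siBDNF) and 75.2 CPM per kb (SAT1 in senescent siCtrl cells). All values from here on are CPM without division by length, given as replicates 1, 2 and 3 of each group, and each gene is compared only with itself.

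**Figure D1:**
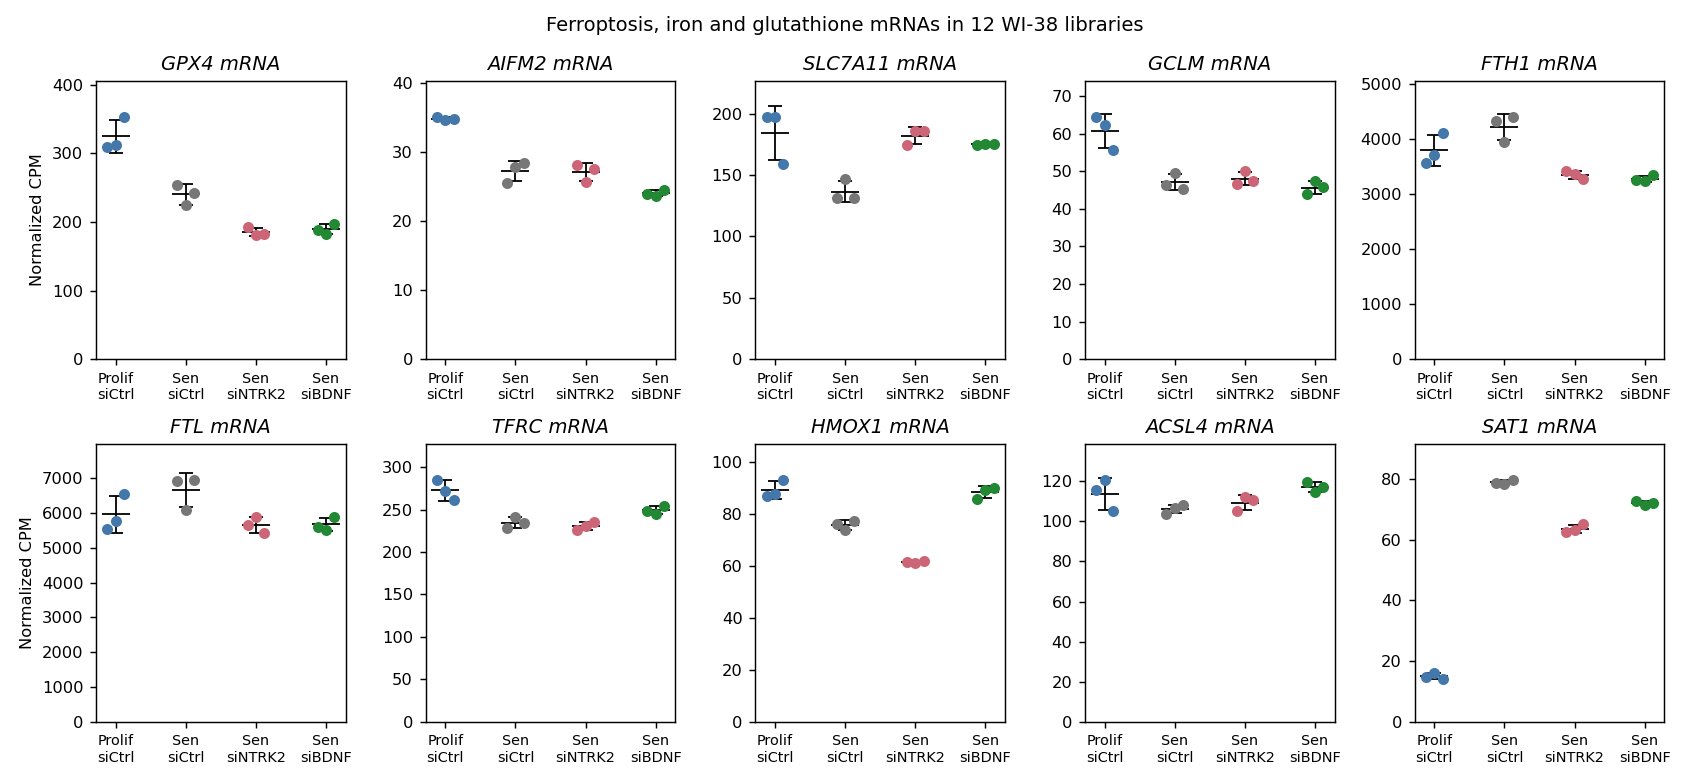
Normalized CPM (linear axes from 0) of the 10 mRNAs in the 12 libraries. Points are libraries, the long bar is the group mean and the error bars are the SD (n = 3); SAT1 mRNA rises from 15 CPM in proliferating to 78.9 CPM in senescent siCtrl cells, and GPX4 mRNA steps down from proliferating to senescent cells and again with either siRNA.

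The first comparison, senescent against proliferating cells with siCtrl, found SAT1 mRNA higher by a factor of 5.24 and 6 members lower by 1.16- to 1.35-fold. In all, 9 of the 10 members passed the test (edgeR quasi-likelihood test, Benjamini-Hochberg adjusted p under 0.05 over all tested genes): FTH1, FTL and SAT1 rose, and GPX4, SLC7A11, HMOX1, TFRC, GCLM and AIFM2 fell. The transcriptome as a whole changed widely in this comparison, with 58.1% of tested genes called, 29.8% higher and 28.3% lower. This share and those below cover tested genes of every level, and a share for genes as abundant as the members was not computed. SAT1 was the 1 member that also exceeded an absolute log2 fold change of 1. Of all tested genes, 16.7% passed both this size and the adjusted p threshold. The median log2 fold change of the members was -0.23, against 0.02 over all tested genes.

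The comparisons of each siRNA with siCtrl in senescent cells gave smaller shifts, and they share the senescent siCtrl libraries. With siNTRK2, 6 of the 10 members passed, SLC7A11 upward and GPX4, FTH1, FTL, HMOX1 and SAT1 downward, where 21.1% of tested genes were called (11.1% higher, 10% lower). With siBDNF, 7 passed, SLC7A11, HMOX1 and ACSL4 upward and GPX4, FTH1, FTL and AIFM2 downward, where 20.5% were called (10.3% higher, 10.2% lower). By edgeR 0 members reached an absolute log2 fold change of 1 with either siRNA, and DESeq2 also gave 0. That size and an adjusted p under 0.05 together were reached by 0.957% of tested genes with siNTRK2 and by 0.609% with siBDNF (edgeR). The largest change of a member was 0.42 with siNTRK2 (SLC7A11) and -0.37 with siBDNF (FTH1), and at an unadjusted p under 0.05 edgeR gave 6 and 8 members. The member medians were -0.13 and -0.09, against 0.00 over all tested genes in both.

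The last comparison set siNTRK2 directly against siBDNF. It called 3 members, AIFM2 higher and HMOX1 and SAT1 lower with siNTRK2, where 16.7% of tested genes were called, 8.84% higher and 7.86% lower. By edgeR and by DESeq2, 0 members had an absolute log2 difference over 1, and both tools gave 4 members at an unadjusted p under 0.05. Of all tested genes, 1.16% had both a difference over 1 and an adjusted p under 0.05 (edgeR).

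**Figure D2:**
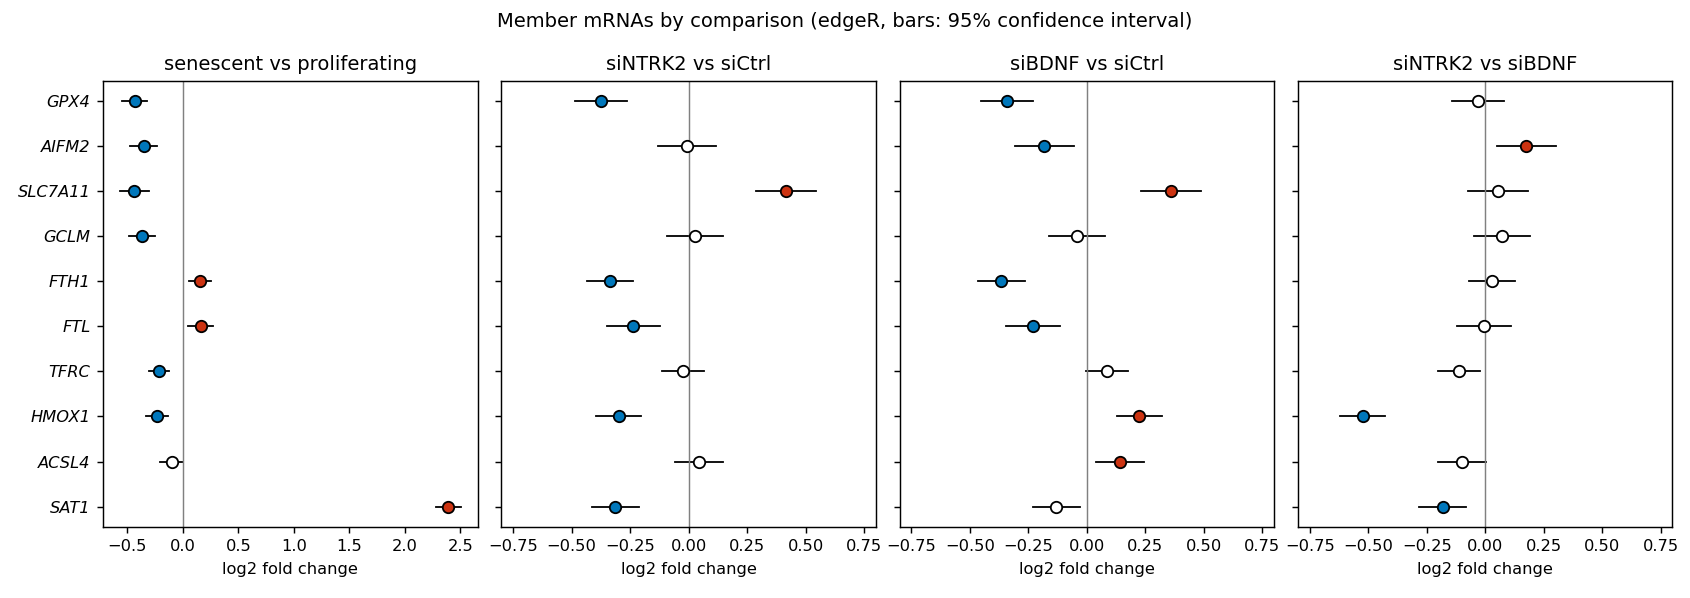
Log2 fold changes of the 10 mRNAs in the 4 comparisons (edgeR). Points are estimates and bars their 95% confidence intervals, blue and red mark an adjusted p under 0.05 and white points did not pass; the x axis of the first panel is wider, to hold SAT1 at 2.39, and HMOX1 sits on opposite sides of 0 with siNTRK2 (-0.30) and siBDNF (0.22).

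The lipid peroxide defence was represented by GPX4 and AIFM2. GPX4 (chr19:1103981-1106790, plus strand) measured 309, 313 and 353 CPM in proliferating cells, 254, 224 and 243 in senescent siCtrl cells, 193, 181 and 182 with siNTRK2 and 189, 183 and 197 with siBDNF. The proliferating libraries were highest, the senescent siCtrl libraries lay below all of them, and the libraries of both silenced groups lay below all siCtrl libraries and overlapped each other. The mRNA fell by 26% in senescent cells (log2 fold change -0.43, SE 0.05, adjusted p = 1.58e-07). It fell by a further 22.8% with siNTRK2 (-0.37, SE 0.05, adjusted p = 1.6e-05) and by 21.1% with siBDNF (-0.34, SE 0.05, adjusted p = 5.50e-05). The direct difference between the siRNAs was -0.03, with a 95% confidence interval of -0.14 to 0.08.

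AIFM2 (chr10:71857979-71892690, minus strand), which encodes FSP1, an oxidoreductase that regenerates the lipid-protecting form of coenzyme Q independently of glutathione, was the least abundant member per kilobase. It measured 35.1, 34.7 and 34.8 CPM in proliferating cells, 25.6, 27.9 and 28.4 in senescent siCtrl cells, 28.2, 25.7 and 27.6 with siNTRK2 and 23.9, 23.7 and 24.5 with siBDNF. Proliferating cells stood apart from the rest and the siBDNF libraries lay lowest, while siNTRK2 and siCtrl overlapped. AIFM2 fell by 21.7% in senescent cells (log2 fold change -0.35, SE 0.06, adjusted p = 1.63e-05) and by 11.8% with siBDNF (-0.18, SE 0.06, adjusted p = 0.0335), and its change with siNTRK2 was -0.01 (95% confidence interval -0.13 to 0.12). The siBDNF call was lost when any 1 of 5 libraries was left out (siCtrl replicate 2 or 3, or any siBDNF replicate), with adjusted p values up to 0.152, and with the length and GC correction (adjusted p = 0.101). Part of AIFM2 overlaps MACROH2A2 on the other strand, whose count was 0.70 to 0.78 of that of AIFM2 in proliferating and 0.39 to 0.44 in senescent libraries. MACROH2A2 changed by -1.13 in senescence and -0.26 with siBDNF, comparisons in which AIFM2 was also lower, and reads of the shared stretch cannot be told apart, so the AIFM2 values are uncertain.

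SLC7A11 and GCLM stand for glutathione supply. SLC7A11 (chr4:139085251-139163503, minus strand), the cystine/glutamate antiporter subunit, measured 197, 197 and 159 CPM in proliferating cells, 131, 147 and 132 in senescent siCtrl cells, 174, 186 and 186 with siNTRK2 and 174, 175 and 175 with siBDNF. The senescent siCtrl libraries were below all others, and the silenced groups overlapped the proliferating range. SLC7A11 fell by 26.1% in senescent cells (log2 fold change -0.44, SE 0.06, adjusted p = 1.64e-06).

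It was the 1 member that rose with both siRNAs, by 33.4% with siNTRK2 (0.42, SE 0.06, adjusted p = 2.73e-05) and by 28.3% with siBDNF (0.36, SE 0.06, adjusted p = 1.74e-04), and the siRNAs differed by 0.06 (95% confidence interval -0.07 to 0.18). These values depended on a correction for transcript length and GC content. With that correction the changes kept their directions and calls but shrank to -0.17 in senescence, 0.23 with siNTRK2 and 0.12 with siBDNF. The direct difference between the siRNAs grew to 0.12 with it and passed (adjusted p = 0.018, edgeR). The antisense gene SLC7A11-AS1 had 0.052 to 0.070 of the counts of SLC7A11 and changed the same way, by -0.69, 0.57 and 0.48 in the same 3 comparisons. It overlaps SLC7A11 on the other strand, and whether the counting used the strand is not given. The antisense counts may therefore hold reads of SLC7A11.

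GCLM (chr1:94350755-94375012, minus strand), the modifier subunit of the enzyme that starts glutathione synthesis, measured 64.4, 62.3 and 55.7 CPM in proliferating cells, 46.5, 49.5 and 45.4 in senescent siCtrl cells, 46.8, 50.0 and 47.4 with siNTRK2 and 43.9, 47.4 and 45.9 with siBDNF. Proliferating libraries were all above senescent ones, and the 3 senescent groups overlapped. It fell by 22.6% in senescent cells (log2 fold change -0.37, SE 0.06, adjusted p = 5.79e-06), and with the length and GC correction the change was -0.10 (adjusted p = 0.0483). Neither siRNA moved it past the threshold, with 95% confidence intervals of -0.09 to 0.15 for siNTRK2 and -0.16 to 0.08 for siBDNF, but with that correction GCLM fell with siBDNF (-0.16, adjusted p = 0.00899). The catalytic subunit gene of the same enzyme, GCLC, went the other way in senescence, from 39.4 to 50.6 CPM (0.36, adjusted p = 3.62e-06), and rose with siBDNF to 57.3 CPM (0.18, adjusted p = 0.0169), a call lost without siCtrl replicate 1 or without siBDNF replicate 1 or 3 (adjusted p = 0.063 to 0.113). SLC3A2, the heavy chain that partners SLC7A11, fell from 213 to 181 CPM in senescence (-0.23, adjusted p = 7.65e-05) and measured -0.04 and 0.02 with the siRNAs (adjusted p = 0.527 and 0.776).

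Iron storage was carried by FTH1 and FTL. FTH1 (chr11:61727190-61735106, minus strand) measured 3558, 3709 and 4105 CPM in proliferating cells, 4318, 3952 and 4393 in senescent siCtrl cells, 3412, 3358 and 3263 with siNTRK2 and 3255, 3237 and 3337 with siBDNF. The proliferating and senescent siCtrl ranges overlapped, and every silenced library lay below every siCtrl library of either state. FTH1 rose by 11.4% in senescent cells (log2 fold change 0.16, SE 0.05, adjusted p = 0.0077), fell by 20.8% with siNTRK2 (-0.34, SE 0.05, adjusted p = 1.51e-05) and fell by 22.4% with siBDNF (-0.37, SE 0.05, adjusted p = 5.59e-06).

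FTL (chr19:49468566-49470136, plus strand) measured 5547, 5770 and 6557 CPM in proliferating cells, 6927, 6099 and 6949 in senescent siCtrl cells, 5663, 5880 and 5415 with siNTRK2 and 5611, 5520 and 5888 with siBDNF. Its silenced libraries were below all senescent siCtrl libraries but overlapped the proliferating ones. The mRNA rose by 11.8% in senescent cells (0.16, SE 0.06, adjusted p = 0.0152), fell by 15.1% with siNTRK2 (-0.24, SE 0.06, adjusted p = 0.00297) and fell by 14.8% with siBDNF (-0.23, SE 0.06, adjusted p = 0.00359). The FTL to FTH1 count ratio ran from 1.54 to 1.604 in the siCtrl libraries and from 1.66 to 1.76 in the silenced ones.

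The senescence increase of both ferritin mRNAs rested on single libraries, and that of FTL did not pass with the length and GC correction either (0.07, adjusted p = 0.116). Without proliferating replicate 1 or 2 or senescent siCtrl replicate 3, neither passed (adjusted p = 0.0510 to 0.0661 for FTH1 and 0.0824 to 0.110 for FTL), and without senescent siCtrl replicate 1 the FTL call was lost as well (adjusted p = 0.0826). The decreases with both siRNAs passed without any 1 library. The exons of FTH1 overlap those of BEST1 on the other strand, and whether the counting used the strand is not given in the sources used here. BEST1 counts were 0.718 to 0.804 of those of FTH1 in all 12 libraries and changed alike (0.14, -0.30 and -0.41 in the 3 comparisons), so reads of these genes cannot be told apart and the FTH1 values are uncertain. FTL, with no overlapping gene in the annotation, does not share this limit. Processed ferritin pseudogenes, near-copies that can take up reads, summed to 1.43% to 2.62% of the FTH1 counts (25 genes) and 0.092% to 0.155% of the FTL counts (16 genes).

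Iron uptake was followed through TFRC (chr3:195739382-195809024, minus strand), the transferrin receptor. It measured 285, 272 and 261 CPM in proliferating cells, 229, 241 and 234 in senescent siCtrl cells, 226, 231 and 235 with siNTRK2 and 249, 244 and 254 with siBDNF. Proliferating libraries were highest, the siBDNF libraries lay between them and the other senescent groups without overlap, and siNTRK2 overlapped siCtrl. TFRC fell by 13.9% in senescent cells (log2 fold change -0.22, SE 0.04, adjusted p = 1.36e-04). With the length and GC correction this change was -0.04 and did not pass (adjusted p = 0.349). Its changes of -0.03 with siNTRK2 and 0.09 with siBDNF did not pass (adjusted p = 0.737 and 0.185), but with the correction TFRC fell with siNTRK2 (-0.15, adjusted p = 0.00172). The direct difference between the siRNAs was -0.11 and did not pass by edgeR (adjusted p = 0.0827). It passed by DESeq2 (-0.11, adjusted p = 0.0434) and by edgeR with the correction (-0.10, adjusted p = 0.0239). When 1 library was left out, its adjusted p reached up to 0.252 (edgeR).

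Of the iron regulatory proteins that bind the hairpins shown above, ACO1 mRNA fell from 309 to 262 CPM in senescence (-0.23, adjusted p = 3.39e-05) and IREB2 from 50.4 to 38.1 CPM (-0.41, adjusted p = 1.63e-06, and -0.17 with the length and GC correction). IREB2 rose to 45.5 CPM with siNTRK2 (0.26, adjusted p = 0.00253, and 0.13 with the correction) and measured 39.2 CPM with siBDNF (adjusted p = 0.732), and the siRNAs differed by 0.22 (adjusted p = 0.0112), a call lost without siNTRK2 replicate 2 (adjusted p = 0.0648). SLC40A1, the gene of the iron exporter ferroportin, fell from 22.3 to 18.1 CPM in senescence (-0.30, adjusted p = 0.00196), a call lost with the length and GC correction (-0.12, adjusted p = 0.122). Its level was 9.34 CPM with siNTRK2 (-0.96, adjusted p = 6.92e-09) and 16 CPM with siBDNF (-0.18, adjusted p = 0.126). The siBDNF change passed by edgeR with that correction (-0.20, adjusted p = 0.0332) and in the fit restricted to the compared groups (-0.18, adjusted p = 0.0473). The direct difference was -0.78 (adjusted p = 1.94e-07), larger than that of any member. NCOA4, the ferritin-degrading receptor's gene, was listed for this comparison but its symbol matched no identifier used here.

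Haem breakdown, which releases iron, was represented by HMOX1 (chr22:35776354-35790207, plus strand), the gene of haem oxygenase 1. It measured 86.8, 87.7 and 93.1 CPM in proliferating cells, 76.1, 73.8 and 77.4 in senescent siCtrl cells, 61.7, 61.1 and 62.0 with siNTRK2 and 85.9, 89.3 and 90.2 with siBDNF. The siNTRK2 libraries lay below all others, the siBDNF libraries lay above the senescent siCtrl libraries, and the siBDNF and proliferating ranges overlapped. HMOX1 fell by 15% in senescent cells (log2 fold change -0.23, SE 0.05, adjusted p = 1.20e-04).

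The siRNAs took HMOX1 in opposite directions, down by 18.7% with siNTRK2 (-0.30, SE 0.05, adjusted p = 4.41e-05) and up by 16.8% with siBDNF (0.22, SE 0.05, adjusted p = 0.00101). The direct difference was -0.52 (SE 0.05, adjusted p = 8.67e-09) and kept an adjusted p under 0.05 under every alternative fit, with values between -0.56 and -0.51. It did not reach an absolute log2 difference of 1. CD68, the 1 leukocyte marker over 1 CPM in all groups, shifted in the same directions, by -0.50 with siNTRK2 and 0.71 with siBDNF. The summed leukocyte markers were 108 to 115 CPM with siCtrl, 76.9 to 80.4 with siNTRK2 and 180 to 183 with siBDNF, of which PTPRC averaged 0.944, 0.677 and 1.0 CPM.

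Lipid supply was represented by ACSL4 (chrX:108867473-108976632, minus strand), whose enzyme activates polyunsaturated fatty acids for entry into membrane lipids. It measured 115, 121 and 105 CPM in proliferating cells, 104, 107 and 108 in senescent siCtrl cells, 105, 112 and 111 with siNTRK2 and 120, 114 and 117 with siBDNF. The groups overlapped except that the siBDNF libraries lay above both other senescent groups. ACSL4 rose by 10.3% with siBDNF (log2 fold change 0.14, SE 0.05, adjusted p = 0.0460), a call lost without any 1 of the 6 libraries compared (adjusted p = 0.0629 to 0.166). The length and GC correction turned this value to -0.06 (adjusted p = 0.347). The other changes, -0.10 in senescence (adjusted p = 0.0841) and 0.04 with siNTRK2 (adjusted p = 0.608), did not pass, and that correction turned the senescence value to 0.18 (adjusted p = 3.92e-04), so no direction can be given for ACSL4.

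SAT1 (chrX:23801290-23804327, plus strand) encodes the enzyme that acetylates spermidine and spermine, the first step of polyamine breakdown. It measured 14.9, 16 and 14.2 CPM in proliferating cells, 78.8, 78.3 and 79.6 in senescent siCtrl cells, 62.4, 63.1 and 65.0 with siNTRK2 and 72.6, 71.4 and 72.1 with siBDNF. All 4 groups stood apart from each other, in the order siCtrl, siBDNF and siNTRK2 among senescent cells with proliferating cells far below. SAT1 rose 5.24-fold in senescence (log2 fold change 2.39, SE 0.05, adjusted p = 1.18e-21), a change larger in size than that of 93.5% of tested genes. It fell by 19.5% with siNTRK2 (-0.31, SE 0.05, adjusted p = 4.15e-05).

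With siBDNF the difference in SAT1 was -0.13 (SE 0.05, adjusted p = 0.0567). DESeq2 put it at the same size and past the threshold (-0.13, adjusted p = 0.0201). Over the alternative settings that difference ran from -0.13 to -0.07, with adjusted p values up to 0.326 by edgeR. When 1 library was left out, its adjusted p reached up to 0.154 (edgeR). The direct difference between the siRNAs was -0.18 (adjusted p = 0.0109). With siNTRK2 CDKN1A, the cell cycle inhibitor p21, also went from 2877 to 2032 CPM, GDF15 from 211 to 138 CPM, CDKN2A, which encodes p16, the other way from 36.4 to 42.0 CPM, and the proliferation marker MKI67 from 1.28 to 4.19 CPM, and the part of the cells' state in the siNTRK2 values of SAT1 and the other members was not tested. Over the 12 libraries the genes whose log2 levels ran most closely with SAT1, among 13596 compared, were TM4SF1 (Pearson r = 0.998), CCND1 (0.998) and SLC9A7 (0.997). These correlations describe libraries that fall into 1 low and 3 high groups.

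The wider pathways were followed through 6 lists holding 153 genes, the 10 members among them, of which 144 were tested. The shares in the next sentence count the members, so they partly repeat the member calls. In senescence 75% of them were called (47 higher, 61 lower), with siNTRK2 31.2% (10 higher, 35 lower) and with siBDNF 40.3% (13 higher, 45 lower), against 58.1%, 21.1% and 20.5% of all tested genes. The lists were chosen by function with earlier results of these data known, the counts below leave out the 10 members, and some genes belong to more than 1 list. Each count is to be read against the shares of all tested genes, which were 29.8% higher and 28.3% lower in senescence, 11.1% and 10% with siNTRK2, and 10.3% and 10.2% with siBDNF. These shares were not matched to the list genes for abundance. For the iron list the counts with the siRNAs were near those shares. With siNTRK2 the total calls of the lipid peroxide defence, glutathione, polyamine and NRF2 lists were also near the share of all tested genes. Most of those calls were falls.

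**Figure D3:**
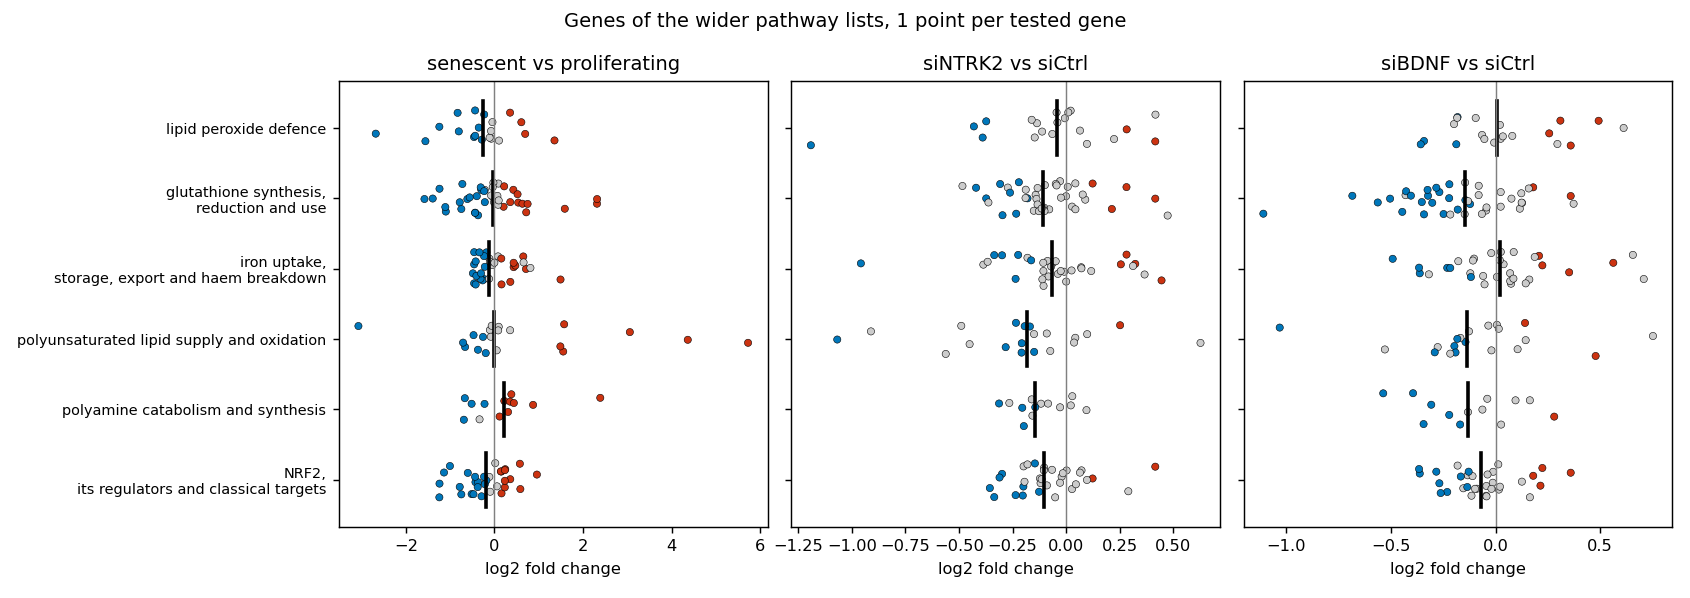
Log2 fold changes of every tested gene of the 6 lists, members included, in 3 comparisons. Each point is a gene, red and blue mark an adjusted p under 0.05 (edgeR), grey points did not pass and the vertical bar is the list's median; x axes differ between panels, and the glutathione list lies mostly to the left of 0 with siBDNF.

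The glutathione list held more decreases than increases with siBDNF. Of its 38 tested non-member genes, 19 fell and 1 rose with siBDNF (median -0.16), against 7 that fell and 3 that rose with siNTRK2 (median -0.11). Set directly against each other, 14 of the 38 were higher and 2 lower with siNTRK2 than with siBDNF (median 0.08). With siBDNF 13 to 18 fell when any 1 library was left out, and 15 fell with the length and GC correction. Calls with siNTRK2, 10 in all, became 16 without senescent siCtrl replicate 2, and the 16 calls of the direct comparison became 8 without siBDNF replicate 1.

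Glutathione S-transferase genes, whose enzymes attach glutathione to electrophiles, were among the largest decreases. GSTM2 fell from 72.1 to 48.7 CPM with siBDNF (-0.56, adjusted p = 1.37e-07) and to 60.2 CPM with siNTRK2 (-0.26, adjusted p = 0.00174), and the siRNAs differed by 0.30 (adjusted p = 5.88e-04). GSTM1 was 63.3 CPM with siCtrl, 47.0 with siBDNF (-0.43, adjusted p = 1.33e-05) and 51.5 with siNTRK2 (-0.30, adjusted p = 7.67e-04), and GSTM genes are near-copies of each other whose reads may be split between them. GSTK1 fell with both siRNAs, from 69.2 to 55.9 CPM (-0.31, adjusted p = 1.66e-04) and to 55.2 CPM (-0.32, adjusted p = 1.06e-04).

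CBS, the first enzyme of the pathway that makes cysteine from homocysteine, went from 67.8 CPM in proliferating to 25.8 in senescent cells (-1.39, adjusted p = 1.20e-16) and to 18.2 with siBDNF (-0.50, adjusted p = 9.74e-07). GLRX, a glutaredoxin, rose from 89.7 to 130 CPM in senescence (0.54, adjusted p = 7.01e-10) and stood at 95.6 CPM with siBDNF (-0.45, adjusted p = 3.01e-07). GPX1, the cytosolic glutathione peroxidase, rose from 328 to 509 CPM in senescence (0.63, adjusted p = 7.62e-11) and fell to 380 CPM with siNTRK2 (-0.42, adjusted p = 1.22e-06). GGT7 showed opposite calls, 0.28 with siNTRK2 (adjusted p = 0.00527) and -0.25 with siBDNF (adjusted p = 0.0147), with a direct difference of 0.53 (adjusted p = 6.34e-06).

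In senescence the same list was split, with 12 of 38 higher and 15 lower. The largest changes were those of GPX3, the secreted peroxidase (4.29 to 21.6 CPM, 2.32, adjusted p = 3.73e-17), of GLS2, a glutaminase (0.215 to 1.06 CPM, 2.32, adjusted p = 1.26e-06), of GGT1, which breaks down extracellular glutathione (2.14 to 6.33 CPM, 1.59, adjusted p = 8.98e-11), and of GSTM5 (5.17 to 1.71 CPM, -1.58, adjusted p = 1.73e-08).

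Among 17 non-member genes of lipid peroxide defence, 4 rose and 8 fell in senescence, and 7 and 7 with the length and GC correction. MBOAT1, a phospholipid-remodelling enzyme, fell from 2.88 to 0.447 CPM (-2.68, adjusted p = 4.93e-10), and SCD, which makes the monounsaturated fatty acids that compete with oxidizable ones, fell from 583 to 198 CPM (-1.56, adjusted p = 4.90e-20). NQO1, a quinone reductase and NRF2 target, fell from 1123 to 475 CPM (-1.24, adjusted p = 6.73e-18). GCH1, which starts the synthesis of the antioxidant tetrahydrobiopterin, rose from 0.610 to 1.59 CPM (1.36, adjusted p = 5.63e-05).

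With siNTRK2 the same genes gave 1 rise and 3 falls, and with siBDNF 3 rises and 2 falls. With the correction these became 1 and 7 with siNTRK2 and 1 and 3 with siBDNF, so no balance of directions can be given. GCH1 was at 0.694 CPM with siNTRK2 (-1.19, adjusted p = 0.00102) and was 1.94 CPM with siBDNF (adjusted p = 0.42), a direct difference of -1.49 (adjusted p = 9.27e-05). SECISBP2, which enables the reading of TGA as selenocysteine in mRNAs such as GPX4, rose from 18.1 to 22.1 CPM with siNTRK2 (0.28, adjusted p = 0.00838, lost without siCtrl replicate 3 at 0.0825) and to 25.5 CPM with siBDNF (0.49, adjusted p = 3.64e-05). PRDX6, a peroxidase acting on phospholipids, fell from 706 to 551 CPM with siBDNF (-0.36, adjusted p = 3.22e-06) and measured 653 CPM with siNTRK2 (-0.11, adjusted p = 0.0812).

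In the iron list, 7 of 28 non-member genes rose and 13 fell in senescence, 4 rose and 3 fell with siNTRK2, and 3 rose and 4 fell with siBDNF. The falls with siNTRK2 were 7 with the length and GC correction, and the 7 calls with siBDNF became 4 without siBDNF replicate 1 and 3 without siBDNF replicate 2. Iron-sulphur cluster genes were among the increases in senescence, ISCU from 55.0 to 90.2 CPM (0.71, adjusted p = 1.40e-12) and NFS1 from 19.7 to 31 CPM (0.65, adjusted p = 1.46e-08). HEPH, a ferroxidase that works with ferroportin, rose from 24.7 to 33.6 CPM with siNTRK2 (0.44, adjusted p = 2.96e-06) and fell to 21.2 CPM with siBDNF (-0.22, adjusted p = 0.00835), a difference of 0.66 (adjusted p = 5.67e-09). Both biliverdin reductase genes fell with siBDNF, BLVRA from 35.9 to 25.5 CPM (-0.49, adjusted p = 7.64e-06) and BLVRB from 36.8 to 28.6 CPM (-0.36, adjusted p = 6.59e-04).

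The list for polyunsaturated lipids had 19 non-member genes, of which 6 rose and 7 fell in senescence, 1 rose and 8 fell with siNTRK2, and 1 rose and 6 fell with siBDNF, where the 7 calls became 4 without siBDNF replicate 1. ELOVL2, which elongates polyunsaturated fatty acids, fell from 12.9 to 1.54 CPM in senescence (-3.07, adjusted p = 7.93e-14) and to 0.736 CPM with siBDNF (-1.03, adjusted p = 0.00141). LPCAT3, which inserts polyunsaturated acyl chains into phospholipids after ACSL4 has activated them, measured 42.1 and 43.6 CPM in the siCtrl groups and fell to 35.9 CPM with siNTRK2 (-0.28, adjusted p = 3.25e-04) and to 38.1 CPM with siBDNF (-0.20, adjusted p = 0.0083), the latter a call lost without siBDNF replicate 2 (adjusted p = 0.0566). FADS2, a desaturase, fell from 353 to 216 CPM in senescence (-0.71, adjusted p = 8.27e-13) and to 187 and 176 CPM with siNTRK2 and siBDNF (adjusted p = 0.00146 and 4.38e-05).

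PTGS2, a cyclooxygenase gene often read as a ferroptosis marker, rose from 1.22 to 3.67 CPM in senescence (1.57, adjusted p = 4.90e-08), fell to 1.74 CPM with siNTRK2 (-1.07, adjusted p = 6.51e-05) and reached 5.16 CPM with siBDNF (0.48, adjusted p = 0.0328), with a direct difference of -1.55 (adjusted p = 2.86e-07). The siBDNF call was lost without any 1 of 5 of the 6 libraries (all but siBDNF replicate 2, adjusted p = 0.0596 to 0.166) and with the length and GC correction (adjusted p = 0.0974). Of the lipoxygenase mRNAs, ALOX12 averaged 1.26 to 1.53 CPM over the groups, ALOXE3 0.581 CPM in senescent siCtrl cells, and 2 others were close to the limit of detection. ALOX15 had no count in any proliferating library and averaged 0.116 CPM in senescent siCtrl cells, and ALOX5 averaged 0.168 CPM there, where 3 counts correspond to 0.0517 to 0.0534 CPM.

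Of the 12 other polyamine genes, 7 rose and 4 fell in senescence. SMOX, which oxidizes spermine, rose with SAT1, from 20.9 to 28.2 CPM (0.44, adjusted p = 1.32e-06). The spermine synthase gene SMS fell from 325 to 205 CPM (-0.67, adjusted p = 6.18e-12) and AMD1, which supplies the aminopropyl donor, from 94.5 to 66.2 CPM (-0.51, adjusted p = 2.17e-08, and -0.29 with the length and GC correction). SAT2, the paralogue of SAT1, fell from 36.0 to 30.8 CPM (-0.22, adjusted p = 0.0141). With siNTRK2 3 of the 12 fell (OAZ1, OAZ2 and SRM) and the other 9 did not pass (edgeR). Of the 3 calls 1 was left without senescent siCtrl replicate 1 and 1 without senescent siCtrl replicate 3. With siBDNF 1 rose and 6 fell, among them SRM, the spermidine synthase gene, from 177 to 135 CPM (-0.39, adjusted p = 1.80e-05), and OAZ1, which encodes antizyme, from 688 to 542 CPM (-0.34, adjusted p = 9.31e-06).

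The last list held NRF2, its regulators and its classical targets. It drew on several of the groups above, among them the members HMOX1, GCLM, SLC7A11, FTH1 and FTL. Of 27 other genes on that list, 9 rose and 14 fell in senescence, 1 rose and 6 fell with siNTRK2, and 2 rose and 7 fell with siBDNF. Regulators such as KEAP1, MAFF, MAFK and NFE2L2 are among these calls, so the counts do not give the direction of NRF2 targets alone. The 7 calls with siNTRK2 became 2 without senescent siCtrl replicate 1, 3 without senescent siCtrl replicate 3 and 4 without siNTRK2 replicate 3, and the 9 with siBDNF became 5 without siBDNF replicate 1. NFE2L2 itself, which encodes NRF2, fell from 136 to 105 CPM in senescence (-0.38, adjusted p = 5.28e-08, and -0.18 with the length and GC correction), and KEAP1, its inhibitor, rose from 72.4 to 80.0 CPM (0.15, adjusted p = 0.0156), a call lost without proliferating replicate 2 or without senescent siCtrl replicate 1 or 3 (adjusted p = 0.0584 to 0.139). TKT, a gene of the pentose phosphate pathway, which supplies NADPH for glutathione reduction, was among the largest decreases of the list at -1.14 (665 to 302 CPM, adjusted p = 6.96e-17). With siBDNF PGD (-0.28, adjusted p = 1.45e-04) and TALDO1 (-0.26, adjusted p = 5.59e-04, and -0.16 with the correction) of the same pathway fell. With siNTRK2 they measured -0.11 and -0.05 (adjusted p = 0.0967 and 0.531), and the direct differences were 0.17 and 0.21 (adjusted p = 0.017 and 0.00487). NFE2L2 and NQO1 measured 0.00 and 0.10 with siNTRK2 (adjusted p = 0.984 and 0.119) and -0.10 and 0.02 with siBDNF (adjusted p = 0.124 and 0.811). With the length and GC correction, edgeR gave a fall of NFE2L2 with siBDNF (-0.19, adjusted p = 0.00148).

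**Figure D4:**
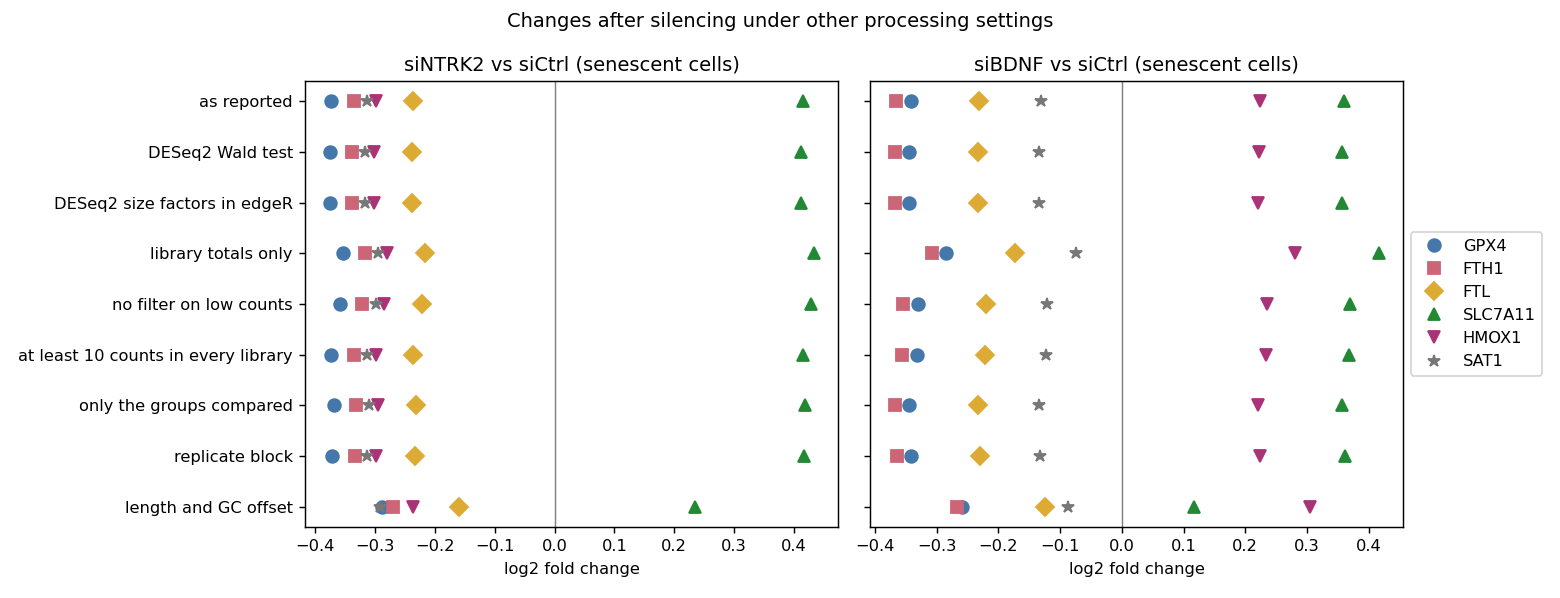
Log2 fold changes of 6 mRNAs with siNTRK2 (left) and siBDNF (right) against siCtrl in senescent cells, as reported and under 8 other ways of processing the same counts. Each symbol is a gene; GPX4, FTH1 and FTL stay left of 0 and SLC7A11 right of 0 in every row, HMOX1 is negative on the left panel and positive on the right, and SLC7A11 moves from 0.42 to 0.23 and from 0.36 to 0.12 with the length and GC offset.

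Across all alternative fits, the decreases of GPX4, FTH1 and FTL, the increase of SLC7A11 and the opposite changes of HMOX1 kept an adjusted p under 0.05 with both siRNAs. With an absolute log2 fold change over 1 required as well, edgeR called 0 of them, as given above. The lowest absolute values among them were those with the length and GC offset, -0.12 for FTL and 0.12 for SLC7A11 with siBDNF.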

How the data were processed

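Poly(A) RNA of the 12 libraries was sequenced with a stranded kit. The deposited values are raw read counts per gene, which the authors made with bcl2fastq 2.20.0.422, Cutadapt, STAR 2.4.0j and featureCounts 1.6.4 on hg19. The strand and overlap settings of the counting are not given in the sources used here. Symbols were found for 55538 of 57773 identifiers, and the listed NCOA4 and PECAM1 matched none.

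Counts were tested in R 4.3.3 with the quasi-likelihood test of edgeR 4.0.16 (limma 3.58.1), with TMM factors and 1 fit over all 4 groups. Genes passed filterByExpr (minimum count 10, minimum total 15), which left 21518. P-values were adjusted by Benjamini-Hochberg over all of them, with a threshold of 0.05. Confidence intervals are at 95%. The limit of detection was set at 3 counts per library and covers counting error only. Alternatives were DESeq2 1.42.0, its size factors in edgeR, library totals alone, no low-count filter, a minimum of 10 counts per library, a fit restricted to the compared groups, a replicate block, an offset that corrects for the length and GC content of transcripts (spline with 4 degrees of freedom), that offset with the block, and leaving out each library. The methods were tested on simulated data.

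The members and lists were chosen with earlier results of these data known. Named genes were the 10 members, up to 4 other genes per list and comparison with the largest change among those called, fixed partners of the members, and the 3 genes most correlated with SAT1. BEST1, MACROH2A2 and SLC7A11-AS1 were chosen for mention once their values had been seen, and the counts of list genes under each alternative were added after seeing the data. Some genes that the rule for named genes would name are not reported here.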

Additional observations from a re-analysis of the deposited data

Results flagged for a closer look

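The effects of the siRNAs, each relative to the same senescent siCtrl libraries, differed for 3 of the 10 mRNAs when siNTRK2 was tested directly against siBDNF (edgeR, n = 3 libraries a group). HMOX1 was lower with siNTRK2 by a log2 difference of -0.52 (adjusted p = 8.67e-09), and the groups did not overlap. SAT1 was lower by -0.18 (adjusted p = 0.0109), also without overlap. AIFM2 was higher with siNTRK2 by 0.18 (adjusted p = 0.0479), and this call was lost in 5 of the 6 fits that left out 1 library, with adjusted p values up to 0.149.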

How the results depend on the processing

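Of 2411 alternative values of 161 results for named genes, 2224 kept their direction and side of the threshold, 112 lost and 34 gained a call, and 41 changed sign. With an absolute log2 fold change over 1 required as well, 1, 0, 0 and 0 members were called in senescence, with siNTRK2, with siBDNF and in the direct comparison. Without 1 library the member calls numbered 7 to 10, 6 to 6, 5 to 6 and 2 to 3.

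Signs turned mostly at values near 0, and the cause was not tested. With the length and GC offset ACSL4 went to 0.18 in senescence, -0.11 with siNTRK2 and -0.060 with siBDNF, and with siNTRK2 GCLM went to -0.073, AIFM2 to 0.016 and NFE2L2 to -0.089. With siBDNF TFRC went to -0.042, KEAP1 to 0.045 and IREB2 to -0.11, and FTH1 to -0.0021 in the direct comparison. With library totals alone the values were 0.012 for AIFM2 with siNTRK2, 0.013, 0.044 and 0.0050 for GCLM, KEAP1 and ACO1 with siBDNF, and -0.0094 for FTH1 directly. Without a filter AIFM2 was 0.0076 with siNTRK2. NFE2L2 with siNTRK2 was -0.0013 by DESeq2 and -0.0012 with its size factors.

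Without 1 library, the values with siNTRK2 ran from -0.0022 to 0.064 for GCLM, from -0.050 to 0.032 for AIFM2 and from -0.020 to 0.015 for NFE2L2. With siBDNF they ran from -0.014 to 0.054 for SLC3A2 and from -0.051 to 0.011 for KEAP1, and directly from -0.035 to 0.025 for FTL and from -0.018 to 0.014 for ACO1.

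Same-numbered replicates did not clearly deviate together (correlations of -0.12 to 0.17, not all over 0.1 in any comparison). The main fit did not pair the libraries, and this check cannot show whether equal numbers share a repeat. With the replicate block 9, 6, 7 and 2 members were called, AIFM2 being lost in the direct comparison (adjusted p = 0.0511). With the block and the offset together, ACSL4 was 0.18, -0.11 and -0.060, GCLM -0.073, AIFM2 0.016, NFE2L2 -0.089, TFRC -0.042, KEAP1 0.045, IREB2 -0.11 and FTH1 -0.0022, in the comparisons named for the offset. Counts of this depth left little counting error in the members, while 3 libraries a group limit the precision.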
